A study of Mus musculus with 22 samples.

Results

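The 10 genes described here encode proteins that shorten or redirect signalling by G protein-coupled receptors. They are 7 regulators of G protein signalling (Rgs2, Rgs4, Rgs7, Rgs8, Rgs9, Rgs14 and Rgs16), both beta-arrestins (Arrb1 and Arrb2) and 1 receptor kinase, Grk5. They were taken by name from a table of raw read counts that holds 24061 genes, and all 10 were among the 14564 genes that passed a filter on low counts. The counts come from bulk tissue of the nucleus accumbens (the ventral striatum, a centre of reward processing) of male C57BL/6J mice 7 to 9 weeks old. The 22 libraries form 4 groups. There were 5 libraries of mice whose gut microbiome was depleted with nonabsorbable antibiotics (Abx) and that were given morphine at 20 mg/kg per day for 7 days. A further 5 came from mice with a normal microbiome (H2O, here called water mice) given the same morphine, 6 from antibiotic mice given saline, and 6 from water mice given saline. Libraries are named by their group and the number in their title. The titles do not say whether a library is 1 animal or a pool, so p-values measure the spread between libraries, which may be technical in part.

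A receptor that binds an opioid or dopamine loads GTP onto the alpha subunit of a G protein, and the signal lasts until that GTP is hydrolysed. Regulators of G protein signalling speed this hydrolysis. Receptor kinases phosphorylate the active receptor, and beta-arrestins then bind it, uncouple it from the G protein and bring it to clathrin-coated pits. In the striatum RGS9 is known as a regulator of mu-opioid and D2 dopamine receptor signalling, and mice without beta-arrestin 2 are known for altered morphine analgesia and tolerance.

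The 250 bases before the annotated start of the genes whose levels the results turn on most, Rgs4 and Grk5, and of Rgs9, the most abundant regulator per length, are given from RefSeq (GRCm38.p6). Capitals mark matches, on either strand, to any of 4 motifs. These were TGACGTCA (the full cAMP response element), TGACG (its core, contained in the full element), TATAAA and CACGTG (an E-box).
Rgs4, chr1:169747643-169747892, minus strand: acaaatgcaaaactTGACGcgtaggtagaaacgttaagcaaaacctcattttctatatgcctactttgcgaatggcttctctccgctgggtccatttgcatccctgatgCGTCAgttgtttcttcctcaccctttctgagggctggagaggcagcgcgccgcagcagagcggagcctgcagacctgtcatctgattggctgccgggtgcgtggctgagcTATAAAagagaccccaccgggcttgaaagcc
Grk5, chr19:60889499-60889748, plus strand: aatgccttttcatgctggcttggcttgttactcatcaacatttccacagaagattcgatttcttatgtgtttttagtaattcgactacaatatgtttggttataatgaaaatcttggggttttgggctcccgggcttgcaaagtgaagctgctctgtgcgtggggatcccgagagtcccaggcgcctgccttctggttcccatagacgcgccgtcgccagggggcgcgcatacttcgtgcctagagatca
Rgs9, chr11:109298182-109298431, minus strand: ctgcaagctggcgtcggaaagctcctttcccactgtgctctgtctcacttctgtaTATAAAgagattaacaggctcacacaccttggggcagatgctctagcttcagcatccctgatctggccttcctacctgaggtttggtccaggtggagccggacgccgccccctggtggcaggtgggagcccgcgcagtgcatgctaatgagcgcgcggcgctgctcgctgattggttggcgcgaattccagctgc
The Rgs4 window held the core at 236 and, on the other strand, at 141 bases before the start, and TATAAA at 31 bases before it. The Rgs9 window held TATAAA at 195 bases before the start, and the Grk5 window held no match. Among 32851 such windows of all genes, 17.8% held the core, 12.4% TATAAA, 6.02% the E-box and 1.55% the full element. RefSeq windows were found for 7 of the 10 genes, these 3 and Rgs2, Rgs7, Rgs8 and Rgs16. A match describes letters only. In the GENCODE M21 annotation (GRCm38) Rgs2, Rgs4, Rgs7, Rgs8 and Rgs16 lie on chromosome 1, Rgs9 and Arrb2 on chromosome 11, Arrb1 on chromosome 7, Rgs14 on chromosome 13 and Grk5 on chromosome 19. Exons of Rgs8, Rgs16 and Arrb2 overlap those of Gm29529, Gm28513 and Mir7115, so their counts are uncertain to that extent.

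Counts assigned to genes ran from 9357299 to 15330947 per library. All 20 fixed markers of striatal projection neurons were measured in every group. Their mean centred log2 CPM (counts scaled by library size and TMM factors), called the striatal score, was lowest in library 5 of the antibiotic mice given saline (-0.77) and library 4 of the water mice given morphine (-0.43), against -0.26 to 0.40 in the other libraries. The same score over 20 markers of cortical and septal neurons was highest in these same libraries (1.64 and 1.29). With both treatments against water and saline, 14 of 14 microglial, 11 of 14 oligodendrocyte, 7 of 13 endothelial and pericyte and 4 of 20 striatal markers fell, where 18.2% of all genes fell, a share close to that of the striatal markers. Fewer cells of a type and less RNA per cell cannot be told apart in bulk tissue.

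Per kilobase of the longest annotated protein-coding transcript, Rgs9 and Rgs4 had the highest levels of the 10 genes and Rgs16 and Grk5 the lowest. In water mice given saline Rgs9 averaged 145 ± 15.7 CPM per kilobase and Rgs4 143 ± 18.9 (SD, n = 6), with overlapping ranges. Rgs14 followed at 74.4 ± 9.77, Arrb1 at 63.8 ± 2.50, Rgs2 at 52.1 ± 7.82, Rgs8 at 39.1 ± 2.74 and Rgs7 at 30.0 ± 3.03. Each neighbouring pair from Rgs14 to Rgs7 had overlapping ranges, while Rgs4 lay above Rgs14 in every library. Arrb2 stood apart at 20.4 ± 1.83, and Rgs16 at 5.37 ± 1.27 and Grk5 at 3.41 ± 0.355 were lower again, each with a range of its own.

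**Figure D1:**
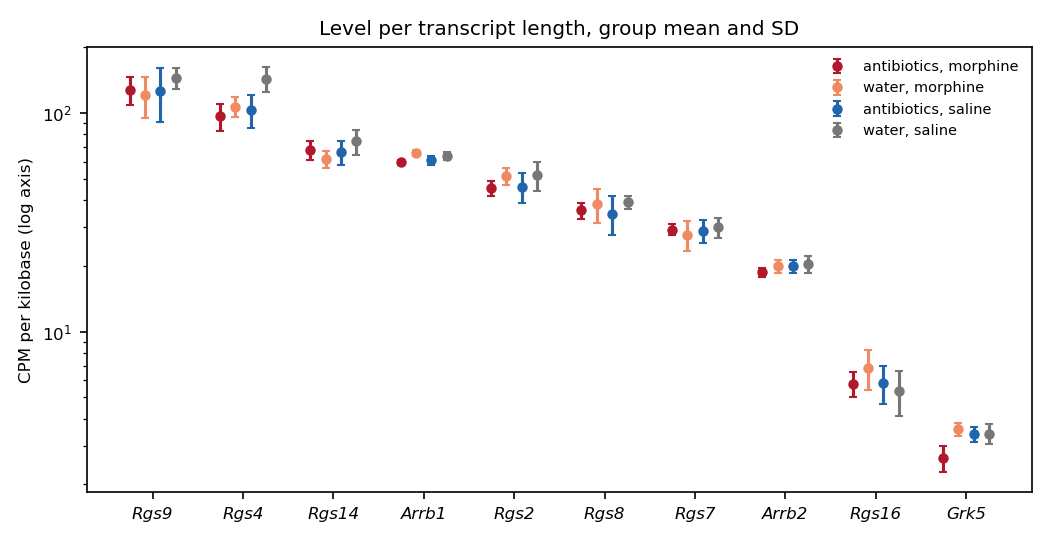
CPM per kilobase of the longest protein-coding transcript (log axis) for each gene, as mean and SD of the 5 or 6 libraries of each group, ordered by the level in water mice given saline. Rgs9 and Rgs4 are the highest and Grk5 the lowest, at 3.41 CPM per kilobase in water mice given saline.

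Of the 10 genes, 3 passed the test in at least 1 comparison, and every change that passed was a decrease. Rgs4 was lower with morphine and with antibiotics than in water mice given saline, Grk5 was lower where antibiotics and morphine were combined, and Arrb1 was slightly lower with antibiotics among mice given morphine. The other 7 genes passed in none of the 6 comparisons with edgeR (quasi-likelihood F-test, adjusted by Benjamini-Hochberg over 14564 genes, threshold 0.05), although Rgs14 and Rgs16 had an unadjusted p under 0.05 in at least 1 of them, and some of the 7 passed with other tools or covariates. With morphine against saline in water mice 1 of 10 passed, against 6.58% of all genes, and in antibiotic mice 1 of 10, against 13.0%. With antibiotics against water 1 of 10 passed among mice given saline, against 1.41% of all genes, and 2 of 10 among mice given morphine, against 18.0%. With antibiotics and morphine together against water and saline 2 of 10 passed, against 35.7%. None of the 10 passed for the difference between both morphine changes with edgeR, against 0.467% of all genes. There 2 had an unadjusted p under 0.05 with edgeR. The share of all genes at that cutoff was not counted, but the p of 0.0297 for Rgs14 ranked 1278 of 14564 genes. For this difference 1 of the 10 passed with DESeq2, against 1.41% of all genes, and 0 with limma-voom, against 0.481%. The shares of all genes depended on single libraries. Leaving out 1 library at a time gave 3.48% (without morphine library 2) to 6.01% for morphine in water mice, 7.45% to 14.1% for morphine in antibiotic mice, 0.33% (without antibiotic-saline library 4) to 2.81% (without antibiotic-saline library 1) for antibiotics in saline mice, 12.8% to 18.8% for antibiotics in morphine mice, 30.3% to 34.7% for both treatments and 0.191% to 0.683% for the difference. The median log2 change of the 10 genes lay between -0.13 and 0.042 in these comparisons, and that of all genes between -0.005 and 0.006.

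**Figure D2:**
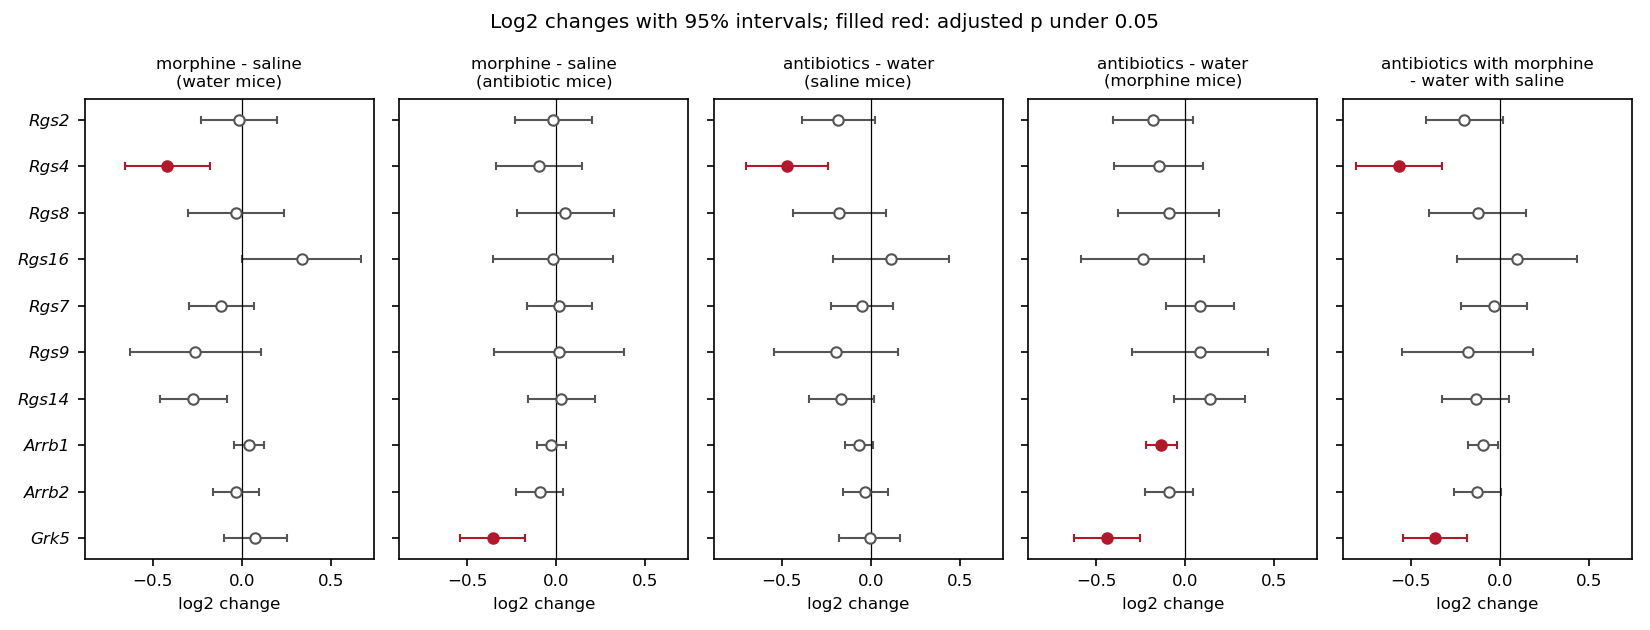
Log2 change (horizontal axis) of each gene in 5 comparisons, with 95% intervals from the edgeR fit, where filled red points passed an adjusted p of 0.05. Rgs4 is filled in 3 panels, Grk5 in 3 and Arrb1 in 1, and each of these lies below 0.

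Rgs4, which acts on alpha subunits of the Gi/o and Gq families, was highest in water mice given saline and lower in all 3 treated groups. It had 283, 327, 239, 252 and 322 CPM in antibiotic mice given morphine, against a lowest of 355, a median of 412.5 and a highest of 516 CPM in water mice given saline. Every library with both treatments lay below every water-saline library, and 10.8% of all genes had groups that did not overlap in this direction. The group means were 285 ± 39.6 (SD, n = 5) and 422 ± 55.6 CPM (SD, n = 6), a log2 change of -0.57 ± 0.12 (SE, adjusted p = 0.000743). The call held without each of the 11 libraries in turn.

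With morphine alone Rgs4 had 267, 316, 355, 332 and 308 CPM in water mice, against the same 355 to 516 CPM in water mice given saline. Morphine library 4, at 355.4 CPM, stood just above the lowest saline library, at 355.1 CPM, and the other 4 lay below every saline library. The log2 change was -0.42 ± 0.12 (adjusted p = 0.0339). With antibiotics alone Rgs4 ran from 225 to 364 CPM with a median of 312, and the mean was 304 ± 51.5 CPM in antibiotic mice given saline, against 422 ± 55.6 in water mice given saline (SD, n = 6 each). The log2 change was -0.47 ± 0.11 (adjusted p = 0.036), with 6 of 6 antibiotic libraries below the water mean. The 3 comparisons share the water-saline libraries, so they are not independent of each other. Among the treated groups Rgs4 differed less. Its log2 change was -0.10 ± 0.12 for morphine against saline in antibiotic mice (adjusted p = 0.645, 95% interval -0.34 to 0.15) and -0.15 ± 0.12 for antibiotics against water in morphine mice (adjusted p = 0.432, interval -0.40 to 0.10). The difference between both morphine changes was 0.32 ± 0.16 and did not pass (unadjusted p = 0.0617, adjusted p = 0.435).

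The calls for Rgs4 with a single treatment stood close to the threshold, and both were lost with no low-count filter (adjusted p = 0.0545 for morphine and 0.0535 for antibiotics). For morphine in water mice the adjusted p rose to between 0.0503 and 0.104 without any 1 of morphine libraries 2, 3, 5 and 6 or of saline libraries 3, 4, 5 and 6, and the log2 change stayed between -0.44 and -0.35 in these fits. For antibiotics it rose to between 0.0526 and 0.0916 without any 1 of antibiotic libraries 4, 5 and 6 or of water libraries 3, 4, 5 and 6, with a log2 change between -0.49 and -0.40. With the striatal score as a covariate, an alternative added after seeing the data, the antibiotic change was -0.40 (adjusted p = 0.0732) and the change without the 2 libraries lowest in that score was -0.43 (adjusted p = 0.0787).

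A measure of the libraries, the length slope, moved with these groups. Within a library, centred log2 CPM was regressed on log2 transcript length, and the slope ran from 0.0257 to 0.0546 in antibiotic mice given morphine, from 0.0287 to 0.0476 in water mice given morphine, from -0.0543 to 0.0483 in antibiotic mice given saline and from -0.0784 to -0.0119 in water mice given saline. With this slope in the design the Rgs4 change was -0.50 for morphine in water mice, -0.50 for antibiotics in saline mice and -0.65 for both treatments. The adjusted p were 0.702, 0.104 and 0.0845. For morphine in water mice and for both treatments the slopes of the groups compared did not overlap, so slope and treatment cannot be told apart there. For morphine in antibiotic mice the overlap came from antibiotic-saline library 6 alone (0.0483). The other libraries of that group ran from -0.0543 to -0.0089, below every library of antibiotic mice given morphine. Slope and morphine can therefore hardly be told apart in antibiotic mice either. What moved the slope was not tested. With the slope in the design 0 of 14564 genes passed for morphine in water mice.

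**Figure D3:**
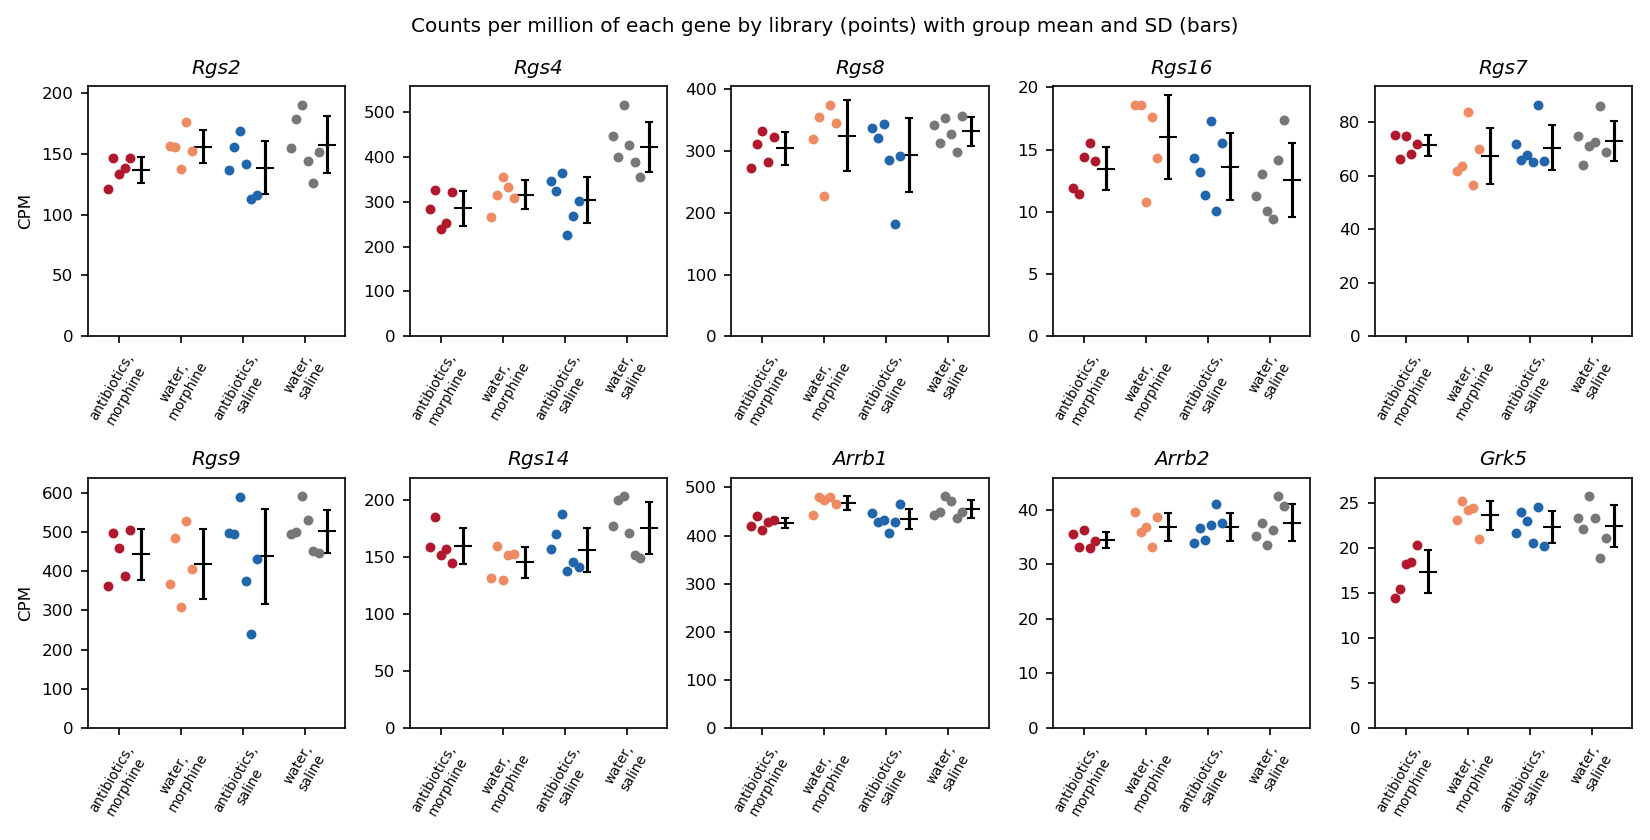
CPM (vertical axis, from 0) of each of the 10 genes by library (points) and group, with the group mean and SD beside them. The 3 treated groups of Rgs4 average 285, 316 and 304 CPM, against 422 in water mice given saline, and Grk5 is lowest in antibiotic mice given morphine, at 17.4 CPM.

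Grk5, a kinase that phosphorylates active receptors, was lower in antibiotic mice given morphine than in each of the other groups. It had 14.5, 15.4, 18.2, 18.4 and 20.4 CPM there, against 23.0, 25.2, 24.2, 24.4 and 21.03 CPM in water mice given morphine. All 5 of the first group lay below all 5 of the second, and 6.82% of all genes had groups apart in this direction. The log2 change was -0.44 ± 0.090 (0.737-fold, adjusted p = 0.00149). Among antibiotic mice it averaged 17.4 ± 2.38 CPM with morphine (n = 5), against 22.3 ± 1.80 with saline (SD, n = 6). The lowest saline library had 20.2 CPM, so only the highest morphine library overlapped it. That change was -0.36 ± 0.088 (adjusted p = 0.00972). Against water mice given saline, which averaged 22.4 ± 2.34 CPM (SD, n = 6), the change was -0.36 ± 0.087 (adjusted p = 0.00236).

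Neither treatment alone moved Grk5 past the threshold. Morphine in water mice gave a log2 change of 0.077 ± 0.086 (adjusted p = 0.649, 95% interval -0.10 to 0.26), and antibiotics in saline mice -0.006 ± 0.083 (adjusted p = 0.98, interval -0.18 to 0.17). The test of the difference itself, the morphine change in antibiotic mice minus that in water mice, gave -0.44 ± 0.12 (unadjusted p = 0.00164, adjusted p = 0.119). It did not pass in edgeR, passed in DESeq2 (adjusted p = 0.0494) and passed without library 5 of the antibiotic mice given morphine (-0.51, adjusted p = 0.0474). With the length slope in the design the change was -0.42 for morphine in antibiotic mice (adjusted p = 0.0965) and -0.46 for both treatments (adjusted p = 0.106).

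Of the beta-arrestins, Arrb1 was the more abundant per length, and its coefficient of variation was the lowest of the 10 genes in each group (2.52% to 4.68%). In antibiotic mice given morphine it had 419.8, 439.7, 412, 428 and 432 CPM, against 443, 479, 474, 479 and 465 CPM in water mice given morphine. The groups did not overlap, and 6.82% of all genes had groups apart in this direction. The difference was small, with a log2 change of -0.13 ± 0.042 (0.911-fold, adjusted p = 0.0286). The adjusted p lay between 0.0605 and 0.0737 without any 1 of antibiotic libraries 1 and 3 or of water libraries 3 and 5. Against water mice given saline, which averaged 455 ± 17.9 CPM, the mean of 426 ± 10.7 CPM with both treatments gave -0.094 ± 0.040 (adjusted p = 0.0727; 0.0355 with DESeq2). Arrb2 averaged 34.5 ± 1.46 CPM in antibiotic mice given morphine, 36.8 ± 2.52 in water mice given morphine, 36.9 ± 2.59 in antibiotic mice given saline and 37.6 ± 3.38 in water mice given saline. Its changes in the 5 comparisons between groups ran from -0.13 to -0.032, and the lowest of them, with both treatments, had a 95% interval of -0.26 to 0.004. With the striatal score as a covariate, added after seeing the data, Arrb2 had a change of -0.19 with both treatments (adjusted p = 0.0107).

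The log2 ratio of Arrb1 to Arrb2 inside a library does not depend on library scaling. It averaged 3.62 ± 0.094 in antibiotic mice given morphine, 3.66 ± 0.14 in water mice given morphine (SD, n = 5 each), 3.56 ± 0.13 in antibiotic mice given saline and 3.59 ± 0.17 in water mice given saline (SD, n = 6 each). In the 4 comparisons the ratio differed by -0.043 to 0.070, with exact permutation p (two-sided) of 0.37 to 0.669, and all had an adjusted p of 0.669 over these 4 tests. The smallest p the exact test allows was 0.00216, or 0.00794 with 5 against 5.

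The other regulators of the R4 family, small proteins built mainly of the RGS domain, were Rgs2, Rgs8 and Rgs16. Rgs2, which prefers alpha subunits of the Gq family, had 121, 147, 133, 138 and 146 CPM in antibiotic mice given morphine and 157, 156, 138, 176 and 152 CPM in water mice given morphine. All 5 antibiotic libraries lay below the water mean, the groups overlapped, and the log2 change of -0.18 ± 0.11 did not pass (adjusted p = 0.256). The antibiotic change under saline had the same size, -0.18 ± 0.099 (adjusted p = 0.344), while both morphine changes were -0.016 with intervals within -0.23 and 0.20. Rgs8, a neuronal regulator of Gi/o proteins, averaged 304 ± 26.4 CPM in antibiotic mice given morphine, 324 ± 57.6 in water mice given morphine, 293 ± 59.4 in antibiotic mice given saline and 332 ± 23.2 in water mice given saline. Its spread came from single libraries, with 182 CPM in antibiotic-saline library 5 (others of its group 286 to 343) and 228 CPM in water-morphine library 4 (others 319.8 to 375), the libraries lowest in striatal score. Without these, an alternative added after seeing the data, Rgs8 had a log2 change of -0.20 with antibiotics among morphine mice (adjusted p = 0.0459), against -0.093 ± 0.14 with them (adjusted p = 0.692). The sign of this change turned with covariates, at 0.11 with the cortical and septal score (adjusted p = 0.52) and 0.0067 with the striatal score (adjusted p = 0.95).

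Rgs16 had 18.6, 18.6, 10.8, 17.6 and 14.3 CPM in water mice given morphine, against a lowest of 9.40, a median of 12.2 and a highest of 17.4 CPM in water mice given saline. Of the 5 morphine libraries 4 lay above the saline mean, and library 4 lay below it. Its log2 change of 0.34 ± 0.16 was the highest of the 10 genes in this comparison and did not pass (unadjusted p = 0.0488, adjusted p = 0.217). Among antibiotic mice the change with morphine was -0.018 ± 0.16 (adjusted p = 0.962).

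The R7 regulators Rgs7 and Rgs9, whose proteins work bound to the G protein subunit Gnb5, passed in no comparison. Between libraries, with group means subtracted, they had a Pearson r of -0.626 and a Spearman rho of -0.356, and r was -0.506 without the 2 libraries farthest from the median of Rgs9. Rgs9 had 362, 499, 459.6, 386 and 506 CPM in antibiotic mice given morphine, 366, 484, 309, 528 and 404 CPM in water mice given morphine, 239 to 589 with a median of 462 in antibiotic mice given saline, and 446 to 592 with a median of 497 in water mice given saline. Its SD in antibiotic mice given saline was 27.6% of the mean and that in water mice given saline 10.8%. The largest change, -0.26 ± 0.18 for morphine in water mice, did not pass (adjusted p = 0.403, interval -0.63 to 0.11). With the striatal score as a covariate, added after seeing the data, Rgs9 was higher with antibiotics among morphine mice (0.21, adjusted p = 0.00953), against 0.081 ± 0.18 without that covariate. Leaving out the 2 libraries lowest in that score instead gave a change of -0.010 (adjusted p = 0.967). Rgs7 averaged 71.3 ± 3.97 CPM in antibiotic mice given morphine, 67.2 ± 10.4 in water mice given morphine, 70.5 ± 8.29 in antibiotic mice given saline and 72.9 ± 7.38 in water mice given saline. Its changes ran from -0.12 to 0.082 and none passed (adjusted p of 0.477 to 0.927). In each of the 4 groups its highest value was in the library of that group lowest in striatal score, at 75.2 CPM in antibiotic mice given morphine, 83.8 in water mice given morphine, 86.6 in antibiotic mice given saline and 85.9 in water mice given saline.

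Rgs14, a scaffold that joins an RGS domain to sites that bind Ras proteins and inactive Gi subunits, had 132, 159.8, 129.8, 152 and 152.5 CPM in water mice given morphine, against a lowest of 149, a median of 174 and a highest of 203 CPM in water mice given saline. Every morphine library lay below the saline mean, and the groups overlapped. The log2 change of -0.27 ± 0.092 missed the threshold in edgeR (unadjusted p = 0.00716, adjusted p = 0.076) and passed in DESeq2 (adjusted p = 0.0449) and with the cortical and septal score as a covariate (-0.30, adjusted p = 0.0275). Over 10 alternative fits the change ran from -0.39 to -0.17 and the adjusted p from 0.0275 to 0.876. Without each of 11 libraries in turn it passed in no edgeR fit (adjusted p of 0.0503 to 0.189). Among antibiotic mice morphine gave 0.029 ± 0.092. The difference between both changes was 0.30 ± 0.13 (unadjusted p = 0.0297, adjusted p = 0.339).

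Part of the spread between libraries followed how strongly each expressed markers of striatal projection neurons. With group means subtracted, Rgs9 correlated with the striatal score at Pearson r = 0.957 and Spearman rho = 0.928 over the 22 libraries. Rgs8 had r = 0.927 (rho 0.822), Rgs2 0.806 (rho 0.813) and Rgs14 0.633 (rho 0.744). Rgs7 had r = -0.759 (rho -0.464) and Arrb2 -0.687 (rho -0.72). Without the 2 libraries farthest from the median score, r was 0.914 for Rgs9, 0.803 for Rgs8, 0.827 for Rgs2, 0.73 for Rgs14, -0.503 for Rgs7 and -0.747 for Arrb2. For Rgs4 r was 0.436 with all libraries and 0.662 without those 2, and for Grk5 0.134 and 0.539. Rgs7 also ran with the cortical and septal score (r = 0.655), and Rgs8 and Rgs2 against it (-0.694 and -0.665). These values describe libraries that share tissue pieces, depth and scaling, and no test was made.

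**Figure D4:**
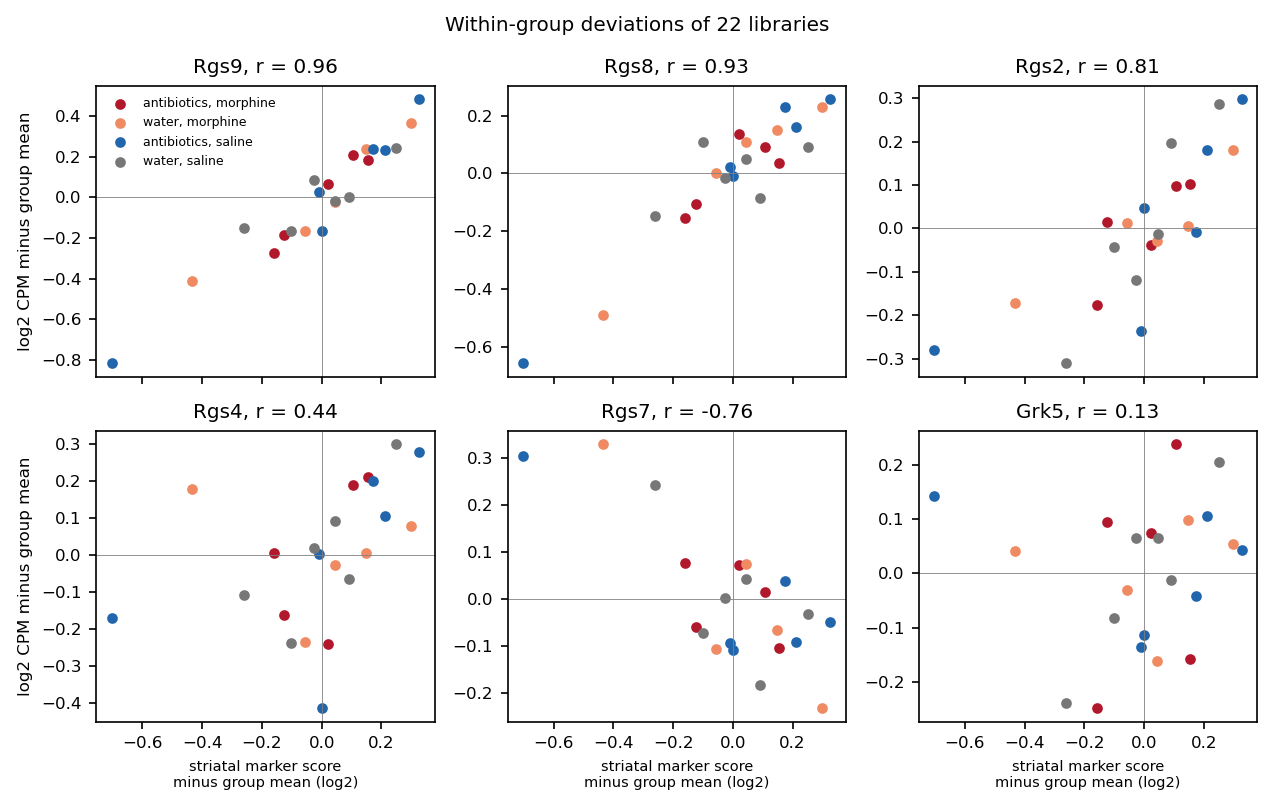
Log2 CPM minus the group mean (vertical axis) against the striatal marker score minus its group mean (horizontal axis, log2) for 6 genes, with 1 point per library coloured by group. Rgs9 follows the score most closely (r = 0.957), Rgs7 runs against it (r = -0.759) and Grk5 has r = 0.134, or 0.539 without the 2 libraries farthest from the median score.

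Among the genes themselves, Rgs8 and Rgs9 varied most alike of all 45 pairs (r = 0.899, 0.809 without the 2 libraries farthest from the median of Rgs9), and Rgs8 and Rgs7 most in opposition (r = -0.696). The second of these rested on the 2 libraries farthest from the median of Rgs7, without which r was -0.268. Over 0.5 stood 8 pairs and under -0.5 stood 10. Rgs4 ran with Arrb1 (r = 0.674) and with the scores of microglia (r = 0.686), endothelial cells and pericytes (r = 0.601) and oligodendrocytes (r = 0.56). The relation to microglia and to endothelial cells and pericytes was not particular to Rgs4. For these scores r was 0.567 and 0.603 for Rgs9, 0.488 and 0.514 for Rgs8, and 0.461 and 0.503 for Rgs2. Against the astrocyte score ran Rgs4 (r = -0.561) and Rgs14 (r = -0.716), while Rgs16 ran with it (r = 0.584). Without the 2 libraries farthest from the median of that score, r was -0.325 for Rgs4, -0.616 for Rgs14 and 0.532 for Rgs16. The microglia score was -0.57 to -0.24 in antibiotic mice given morphine, 0.018 to 0.18 in water mice given morphine, -0.19 to 0.19 in antibiotic mice given saline and 0.23 to 0.37 in water mice given saline. The summed level of its 14 markers, none of them at 0 in every library, was 469 to 557, 629 to 706, 568 to 703 and 735 to 787 CPM in those groups. Their part in the results for Rgs4, Grk5 and Arrb1 was not tested. Of 11232 genes with a mean of at least 5 CPM, the gene most like each member by this measure was Bcr for Rgs9 (r = 0.975), Gpr83 for Rgs8 (0.951), Hbegf for Rgs2 (0.909), Tyro3 and Mark2 for Rgs14 and Arrb1 (both 0.908), and Tmem145 for Arrb2 (0.906). It was Map6d1 for Rgs4 (0.901), Ntng1 for Rgs7 (0.892), Inadl for Rgs16 (0.891) and Pcdhga1 for Grk5 (0.73). Pcdhga1 belongs to a cluster of genes with shared exons, so its counts are uncertain.

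**Figure D5:**
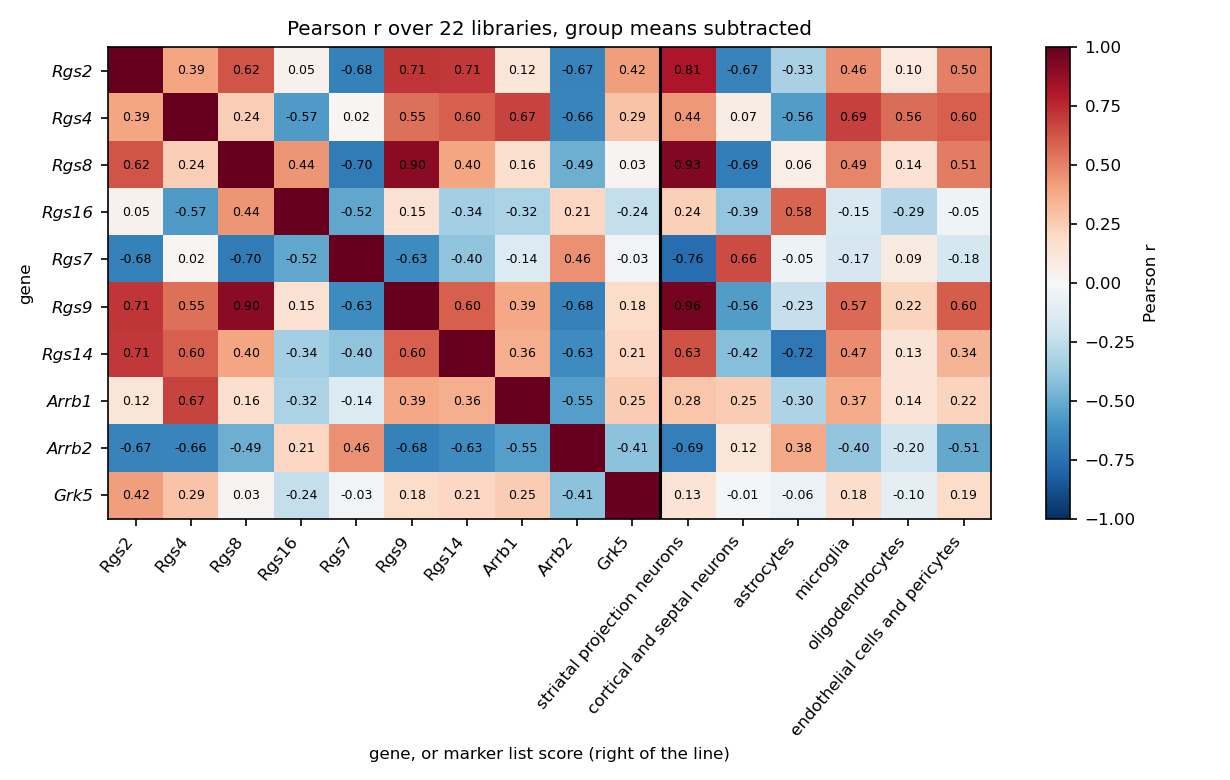
Pearson r over 22 libraries with group means subtracted, for the 10 genes (rows) against each other and, right of the line, against the scores of 6 marker lists (columns). Rgs2, Rgs8, Rgs9 and Rgs14 run with the striatal score, and Rgs7 and Arrb2 run against it.

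Other genes of the pathway were counted by list in the main edgeR fit. The alternative fits were read for the 10 genes only, not for genes of these lists. With the length slope in the design 0 of 14564 genes passed for morphine in water mice, so no list gene passed there. With both treatments 519 genes passed in that fit, against 5205 without the slope. For morphine in antibiotic mice 138 genes passed in it, against 1900 without the slope. Of all genes, 6.43% rose and 6.62% fell for morphine in antibiotic mice, 9.58% fell for antibiotics in morphine mice, and 17.6% rose and 18.2% fell with both treatments. Of 12 further RGS genes tested with edgeR, 0 passed for morphine in water mice and 0 for antibiotics in saline mice. At an unadjusted p under 0.05 stood 3 and 4 of them, and the share of all genes at that cutoff was not counted. In the first of these comparisons a p of 0.0488 (Rgs16) ranked 3275 of 14564 genes, and in the second 0.0728 (Rgs14) ranked 3163. For morphine in antibiotic mice 1 rose and 1 fell, for antibiotics in morphine mice 1 fell, and with both treatments 1 rose and 4 fell. Rgs17, a Gi/o regulator of the RZ family, rose with morphine in antibiotic mice (89.3 ± 9.43 against 72.8 ± 5.61 CPM, log2 change 0.29 ± 0.084, adjusted p = 0.0232). Rgs19 fell there (-0.46 ± 0.12, adjusted p = 0.015). Rgs10, a regulator enriched in microglia, averaged 39.5 ± 7.21 CPM with both treatments and 64.6 ± 8.09 in water mice given saline (-0.71 ± 0.14, adjusted p = 0.000558), and Rgs5, a marker of pericytes, 24.4 ± 3.67 and 31.5 ± 3.21 CPM (-0.37 ± 0.094, adjusted p = 0.00406). The endothelial and pericyte score lay between -0.25 and -0.013 in the first of these groups and between 0.15 and 0.23 in the second. The part of both scores in these changes was not tested.

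Of 8 partners and anchors of RGS proteins, Gnb5, the subunit that R7 proteins need, averaged 245 ± 28.3 CPM with both treatments and 311 ± 22.2 in water mice given saline (-0.34 ± 0.087, adjusted p = 0.00368). Gpsm2, which binds inactive Gi subunits, rose in that comparison (0.31 ± 0.096, adjusted p = 0.0127) and for antibiotics in morphine mice (0.32 ± 0.099, adjusted p = 0.0284). Gpr158, a membrane anchor of R7 complexes, rose with morphine in antibiotic mice (0.23 ± 0.069, adjusted p = 0.0272). Among 6 other receptor kinases and visual arrestins, Adrbk2 (the receptor kinase also called Grk3) averaged 98.5 ± 15.4 CPM with both treatments and 52.9 ± 7.84 in water mice given saline, a 1.86-fold increase (0.90 ± 0.19, adjusted p = 0.00115). This was opposite in direction to Grk5. Arr3, a visual arrestin present at a low level, averaged 1.20 ± 0.328 and 0.491 ± 0.185 CPM (1.29 ± 0.29, adjusted p = 0.00129).

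Among 13 alpha subunits 3 rose and 5 fell with both treatments, and such counts in lists of this size stand beside the shares of all genes given above, with no test of the list. Gna12 fell in that comparison (-0.44 ± 0.059, adjusted p = 7.31e-06), for antibiotics in morphine mice (-0.41 ± 0.061, adjusted p = 7.53e-05) and for morphine in antibiotic mice (-0.24 ± 0.059, adjusted p = 0.0104). Gnai2, one of the Gi subunits on which opioid receptors act, fell with morphine in antibiotic mice (-0.23 ± 0.054, adjusted p = 0.00707), and Gna13 rose with morphine in water mice (0.25 ± 0.049, adjusted p = 0.00431). Gna11, a Gq family subunit, rose with antibiotics in morphine mice (0.16 ± 0.036, adjusted p = 0.00285). Among 14 beta and gamma subunits 1 rose and 4 fell with both treatments, with Gng11 at -1.02 ± 0.15 (adjusted p = 2.34e-05) and Gnb2 at -0.35 ± 0.061 (adjusted p = 0.000142). Of 15 clathrin endocytosis genes 2 rose and 3 fell, among them the adaptor subunit Ap2a2 at 0.27 ± 0.065 and the light chain Cltb at -0.23 ± 0.055 (adjusted p = 0.00262 and 0.00203). The heavy chain Cltc rose with morphine in antibiotic mice (0.19 ± 0.054, adjusted p = 0.0222).

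Of 16 receptors that couple to these G proteins in striatum, 1 rose and 1 fell with both treatments, which were Htr2c (0.21 ± 0.076, adjusted p = 0.0321) and the adenosine receptor Adora2a (-0.73 ± 0.20, adjusted p = 0.00929). The mu-opioid receptor gene Oprm1 averaged 7.62 ± 1.81 CPM with morphine and 3.67 ± 0.760 with saline in water mice (1.04 ± 0.23, adjusted p = 0.0108). It passed in no other comparison. Its change was 0.38 for morphine in antibiotic mice and 0.21 for antibiotics in saline mice (adjusted p = 0.311 and 0.699). For antibiotics in morphine mice it was -0.455 (adjusted p = 0.183) and with both treatments 0.59 (adjusted p = 0.0571). The difference between both morphine changes was -0.66 (adjusted p = 0.426). The dopamine receptor genes Drd1a and Drd2 had changes of -0.11 ± 0.16 and -0.46 ± 0.18 with both treatments (adjusted p = 0.606 and 0.0512). Neither passed in any other comparison. There Drd1a ran from -0.14 to 0.14 (adjusted p of 0.666 to 0.996) and Drd2 from -0.32 to 0.086 (adjusted p of 0.343 to 0.924). In the median, log2 changes with both treatments were -0.12 for the 12 further RGS genes, 0.43 for the 6 kinases and visual arrestins and 0.006 for all genes. Of those 6, only 2 passed, Adrbk2 and Arr3, and Arr3 averaged 1.20 CPM with both treatments. Their median therefore rests on few genes and was not tested.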

How the data were processed

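The authors deposited raw read counts per gene for the 22 libraries of nucleus accumbens RNA. Per the labels' protocols, RNA was extracted with TRIzol, turned into cDNA with a SMARTer kit and sheared before library preparation. The submitters' processing notes name FastQC, STAR 2.4.0 and edgeR with no role. The counting tool, genome build, annotation and strand setting were "not given in the sources used here". One label names polyA RNA as the molecule, while the cDNA step speaks of total RNA. A second deposited table, of normalized values, was not used.

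The 5 summary entries that name no gene held 20.6% to 26.4% of each library's total of 11789713 to 19755139 counts and were removed. Genes were filtered with filterByExpr by group, scaled by TMM and tested in R 4.3.3 with the quasi-likelihood F-test of edgeR 4.0.16 in 1 model of 4 groups, two-sided, with Benjamini-Hochberg adjustment over 14564 genes and a threshold of 0.05. CPM carry a prior count of 2 on the log2 scale. An SE is the log2 change divided by the square root of F, and intervals are at 95%. Lengths come from the longest protein-coding transcript in GENCODE M21, and 91.8% of tested genes were matched to one by symbol. Alternatives were DESeq2 1.42.0, limma-voom (limma 3.58.1), other scaling, no filter, covariates, a replicate block and leaving out each library. The fits with the striatal score and those without the 2 libraries lowest in it were added after seeing the data.

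The 10 genes, the pathway and marker lists and the tests were chosen with earlier results of these data known. The rule for names took all 10 genes, the 2 genes of each pathway list with the smallest p among those past the threshold in each comparison, Oprm1, Drd1a and Drd2 always, and for each of the 10 the gene most like it. No pair of libraries agreed within sampling noise, since the 50 pairs within groups differed by 3.17 to 23.0 times the sampling variance. On simulated counts for morphine against saline in water mice, over 14564 genes, the test found 42% of the genes given a 1.25-fold change, 76% of those given a 1.5-fold change and 92% of those given a 2-fold change, and made 6 false calls. Each fold change was given to 50 genes. The counts were drawn independently for each gene, with no shifts shared between genes such as those in striatal score or length slope. These rates therefore need not hold for the real libraries.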

Additional observations from a re-analysis of the deposited data

Results flagged for a closer look

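In 44 groups of values tested for a library far from the rest, 2 were found, and chance gives about 1 in 20 groups. Both concern library 5 of the antibiotic mice given saline. Rgs8 had 182 CPM there, against 286 to 343 CPM in the other 5 libraries of the group, a gap of 0.641 of the group's range (critical value 0.625). Rgs7 had 86.6 CPM there, against 65.1 to 72.0 CPM in the others, a gap of 0.678 of the range. The same library had the lowest striatal score (-0.77) and the highest cortical and septal score (1.64) of all 22 libraries.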

How the results depend on the processing

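Grk5 kept its call for antibiotics against water in morphine mice in all alternatives run, and Rgs4 kept its call with both treatments in all but the length slope. The count of the 10 genes past the threshold for morphine in water mice was 0 with no low-count filter and with the length slope, and 2 with DESeq2 and with the cortical and septal score. Of all genes, 3.73%, 0%, 10.3% and 10.4% passed in those fits, in that order. For antibiotics in saline mice the count was 0 with no filter (0.765% of all genes), with only the groups compared (0.477%) and with the replicate block (0.721%). It was also 0 with the length slope (0.316%), with the striatal score (1.19%) and without the 2 libraries lowest in that score (0.883%). For morphine in antibiotic mice and for both treatments the count was 0 with the length slope, against 0.948% and 3.56% of all genes. It was 1 with the replicate block for antibiotics in morphine mice (13.8% of all genes). For the difference between morphine changes it was 1 with DESeq2 (1.41%). For both treatments the count was 3, against 2 in the main fit, with DESeq2 (35.8% of all genes) and the cortical and septal score (38.3%). The replicate block (26.9%) and the striatal score (36.8%) gave 3 there too. For antibiotics in morphine mice the count was 3, against 2, with the striatal score (22.5%) and without those 2 libraries (21%). Without each library in turn these counts ran from 0 to 1 for morphine in water mice, 1 to 1 in antibiotic mice, 0 to 1 for antibiotics in saline mice, 1 to 2 in morphine mice, 2 to 2 for both treatments and 0 to 1 for the difference. The cause of these moves was not tested.

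The numbers in the titles were not used to pair the libraries in the main fit. Of 17 same-numbered pairs 6 had deviations that correlated over 0.1 (r from -0.478 to 0.353). Pairs with different numbers were not measured, so these values cannot decide whether a number marks a shared litter or batch. A replicate block by number was run as an alternative. With that replicate block, Rgs4 had an adjusted p of 0.0656 for morphine in water mice and 0.0579 for antibiotics in saline mice, Arrb1 0.0899 for antibiotics in morphine mice, Rgs14 0.0475 for morphine in water mice and Rgs2 0.0413 for both treatments. Under the block the sign turned for Arrb2 (0.042 for morphine in water mice, 0.052 for antibiotics in saline mice) and Rgs7 (0.0091 for antibiotics in saline mice, 0.027 for both treatments).

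Other changes of sign concerned log2 changes that did not pass in the edgeR fit, although for antibiotics in morphine mice Rgs9 passed with the striatal score (0.21) and Rgs8 without the 2 libraries lowest in it (-0.20). For morphine in water mice the length slope gave 0.10 for Rgs2, 0.030 for Rgs8, -0.055 for Arrb1, 0.026 for Arrb2 and -0.014 for Grk5, the striatal score 0.073 for Rgs2 and 0.073 for Rgs8, and leaving out the 2 libraries lowest in it 0.030 (0.0295) for Rgs2 and 0.077 for Rgs8. For morphine in antibiotic mice Rgs2 was at 0.020 with the cortical and septal score, 0.066 with the length slope and 0.0082 with the striatal score, Rgs16 at 0.0055 (0.00545) with the cortical and septal score and 0.11 with the length slope, and without those 2 libraries Rgs8 was at -0.055 (-0.0554) and Rgs9 at -0.11. For antibiotics in saline mice Grk5 was at 0.00011 with DESeq2, 0.0010 with only the groups compared and 0.011 with the striatal score, which put Rgs9 at 0.0053. For antibiotics in morphine mice the cortical and septal score gave 0.11 for Rgs8 and -0.031 for Rgs7, the striatal score 0.0067 for Rgs8, and leaving out the 2 libraries -0.010 (-0.0103) for Rgs9. For both treatments the striatal score gave 0.079 for Rgs8 and 0.093 for Rgs9. For the difference, Rgs2 was at -0.0046 with DESeq2 size factors, -0.0061 with no filter, -0.0047 with DESeq2, -0.035 with the length slope, -0.065 with the striatal score and -0.099 without the 2 libraries, where Rgs8 was at -0.13.

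Leaving out single libraries turned the sign of further changes near 0. For morphine in water mice the ranges were -0.074 to 0.045 for Rgs2, -0.090 to 0.072 for Rgs8 and -0.064 to 0.0037 for Arrb2. For morphine in antibiotic mice they were -0.068 to 0.048 for Rgs2, -0.054 to 0.10 for Rgs8, -0.088 to 0.060 for Rgs16, -0.0038 to 0.084 for Rgs7, -0.11 to 0.12 for Rgs9 and -0.032 to 0.087 for Rgs14. For antibiotics in saline mice they were -0.12 to 0.0025 for Rgs7, -0.065 to 0.0060 for Arrb2 and -0.051 to 0.036 for Grk5, and in morphine mice -0.011 to 0.18 for Rgs9. For both treatments Rgs7 ran from -0.068 to 0.020, and for the difference Rgs2 from -0.061 to 0.064 and Rgs8 from -0.022 to 0.14. The log2 ratio of Arrb1 to Arrb2 differed by -0.086 to 0.010 for antibiotics in saline mice and by -0.089 to 0.0028 in morphine mice.

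Over all genes, the count past the threshold ran from 0 (length slope) to 1508 (cortical and septal score) for morphine in water mice, from 138 (length slope) to 2525 (striatal score) for morphine in antibiotic mice and from 46 (length slope) to 417 (DESeq2) for antibiotics in saline mice. It ran from 2003 (replicate block) to 3281 (striatal score) for antibiotics in morphine mice, from 519 (length slope) to 5656 (without the 2 libraries lowest in striatal score) for both treatments and from 10 (replicate block) to 185 (DESeq2) for the difference. These ranges leave out the fits without 1 library. Depth was 9357299 to 15330947 counts in genes per library, and the genes with the lowest levels, Rgs16 and Grk5, had the fewest reads behind their values.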
